A study of Mus musculus with 8 samples.

Results

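The TALE homeobox genes described here are Meis1, Meis2, Meis3, Pbx2, Pbx3, Pbx4, Pknox1 and Pknox2. They were chosen by gene name, do not cover every gene of these families, and make up 8 of the 37980 genes in the table, of which 17710 had a value above 0 in at least 1 library. RNA was sequenced from multipotent progenitors (MPPs), bone marrow cells that can form all blood lineages, sorted from mice on the C57BL/6 background as Lin- CD48- c-kit+ Sca1+ CD135+ CD150-, with 1000 cells in each library. The NA MPPs came from NA LSL/+; Vav-Cre mice, in which the fusion gene NUP98-HOXA10hd (the front part of the nuclear pore protein NUP98 joined to the homeodomain of HOXA10) sits in the Rosa26 locus behind a stop cassette that Cre removes. Since Vav-Cre acts throughout the blood system, the fusion was present in stem cells and in all cells derived from them, not in MPPs alone. The WT MPPs came from age-matched wild-type mice carrying CD45.2, a variant of a blood cell surface protein. Each group had 4 libraries, called NA1 to NA4 and WT1 to WT4 after the replicate numbers. No label states that the libraries of a group came from separate mice, so the p-values below measure the spread between these libraries, which may be technical.

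TALE homeodomain proteins carry a loop of additional amino acids between the first helices of the DNA-binding homeodomain. PBX proteins bind DNA together with HOX proteins and make their choice of site more specific. MEIS and PKNOX (also called PREP) proteins pair with PBX proteins and can join them and a HOX protein on DNA. MEIS1 is needed to maintain blood stem cells, falls as myeloid cells mature, and speeds the leukaemia that HOXA9 causes in mice.

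The homeobox, the stretch of a gene that encodes the homeodomain, shows how the 3 subfamilies relate and is printed for the gene with the highest level in each subfamily and a relative of it, of which Meis2 and Pknox2 were at or near 0. The sequences are the coding strand from transcripts of the GENCODE M21 annotation (build GRCm38), 189 bases each. Capitals mark the 3 codons of the conserved loop motif at bases 79 to 87.
Meis1: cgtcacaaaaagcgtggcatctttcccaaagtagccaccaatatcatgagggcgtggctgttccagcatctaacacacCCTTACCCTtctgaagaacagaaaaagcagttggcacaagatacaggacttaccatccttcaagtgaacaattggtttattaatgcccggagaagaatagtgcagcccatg
Meis2: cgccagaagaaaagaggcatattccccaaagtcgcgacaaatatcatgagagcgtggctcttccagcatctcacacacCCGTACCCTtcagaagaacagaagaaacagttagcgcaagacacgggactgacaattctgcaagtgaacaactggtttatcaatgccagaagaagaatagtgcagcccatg
Pbx2: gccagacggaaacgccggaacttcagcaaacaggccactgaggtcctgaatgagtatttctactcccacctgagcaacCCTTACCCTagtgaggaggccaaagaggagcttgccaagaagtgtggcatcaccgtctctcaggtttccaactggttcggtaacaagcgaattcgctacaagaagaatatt
Pbx4: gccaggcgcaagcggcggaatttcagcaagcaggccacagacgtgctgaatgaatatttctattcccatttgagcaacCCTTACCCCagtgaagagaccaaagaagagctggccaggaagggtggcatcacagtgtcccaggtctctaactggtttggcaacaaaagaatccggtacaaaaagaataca
Pknox1: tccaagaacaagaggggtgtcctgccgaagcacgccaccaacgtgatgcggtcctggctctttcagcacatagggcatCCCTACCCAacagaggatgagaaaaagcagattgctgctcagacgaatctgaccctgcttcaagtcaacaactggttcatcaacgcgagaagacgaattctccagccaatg
Pknox2: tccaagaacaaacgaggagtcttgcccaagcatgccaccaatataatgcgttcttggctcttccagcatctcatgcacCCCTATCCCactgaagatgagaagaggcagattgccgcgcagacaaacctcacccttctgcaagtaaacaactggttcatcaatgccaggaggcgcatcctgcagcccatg
Homeoboxes of the Meis genes were identical at 82.0% to 84.7% of bases, those of the Pbx genes at 79.4% to 82.5%, and Pknox1 and Pknox2 at 78.3%. Meis and Pknox homeoboxes shared 65.1% to 71.4% of bases. Pbx homeoboxes stood farther from both, at 44.4% to 53.4% against Meis and 46.6% to 52.4% against Pknox. Stretches shared with other genes were searched in the longest transcript of each gene only. In that transcript, no stretch of 50 bases was shared with another gene for Meis3, the Pbx genes or the Pknox genes. In Meis1, 13.3% of such stretches were also found in another gene model. Other exons of a gene can overlap a neighbour, as given for Pbx2 below.

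The deposited values were gene counts divided by a size factor for each library, called normalised counts here. From the value that 1 read was worth, the libraries held 3876903 to 4916971 reads, with NA4, WT2 and WT3 shallower than the other 5. NA4 and WT4 each lay closer than any other library to the mean of the other 3 in their group (r over 11451 genes of 0.988 for NA4 and 0.992 for WT4, against 0.955 to 0.971 for the rest). The main results are given without them too. Xist, expressed from the inactive X chromosome of females, was 0.940 to 2.80 in NA and 869 to 1285 in WT, and the Y-linked Ddx3y was 281 to 668 in NA and 0 to 0.888 in WT. The labels name no sex, and sex and genotype cannot be told apart in any comparison below. Hoxa10 was higher in NA (324 ± 32.0 against 139 ± 7.997, SD, n = 4). Reads of the fusion and of the mouse gene could not be told apart there. The summed MPP markers, which were Kit, Ly6a and Flt3 from the sort gate and the progenitor marker Cd34 from outside it, were 7337 to 7655 in NA and 7486 to 7891 in WT, with all 4 present in each group and Ly6a lower in NA. Summed markers of long-term stem cells were higher in NA (6064 to 7027 against 4011 to 4156, with 3 of 6 called), while those of erythroid cells (33.1 to 62.98 against 135 to 215, 1 of 1 tested called, with Alas2 at 0), granulocytes (1390.3 to 1709 against 1749.8 to 2629, 2 of 4 called, with Elane at 0) and monocytes (9.23 to 45.7 against 67.5 to 75.9, 0 of 1 called) were lower. Hlf was the largest part of the stem cell sum, with a mean of 4185 in NA and 2198 in WT. Prtn3 made up most of the granulocyte sum, with a mean of 1523 in NA and 2028 in WT. Hbb-bt made up most of the erythroid sum, with a mean of 41.2 in NA and 163 in WT. The stem cell markers that were not called had log2 fold changes of -0.52, -0.05 and -0.04. Megakaryocyte (184 to 276 against 202 to 275), B cell (101 to 239 against 182 to 269, with Igll1 at 0), T cell (0.940 to 13.8 against 7.93 to 21.6, with Cd3d, Cd3e, Cd3g and Cd8a at 0) and stromal or endothelial markers (74.3 to 231 against 94.1 to 137, with Cdh5 at 0) overlapped between groups. The part of these cell types in the values of the TALE genes was not tested.

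None of the TALE genes passed the test for a difference between NA and WT MPPs, and the interval around Meis1, the gene with the highest level, was narrow. Of the 8 genes, 6 passed the filter on low values (at least 10 normalised counts in at least 4 libraries), and 0 of these 6 were called by limma at an adjusted p below 0.05. Over all 11451 genes tested the share called was 17.9%, with 10.1% higher and 7.87% lower in NA. At an unadjusted p below 0.05 the count was also 0 of 6, against 32.5% of all genes, and the values of NA and WT libraries overlapped for all 6, whereas they did not overlap for 22% of all genes. Of the 6, 4 had a positive and 2 a negative log2 fold change, with a median of 0.30 beside -0.01 over all genes tested. All fold changes are on the log2(normalised count + 1) scale, which understates the change of low genes. In bulk RNA, fewer cells that express a gene and less RNA per cell cannot be told apart.

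**Figure D1:**
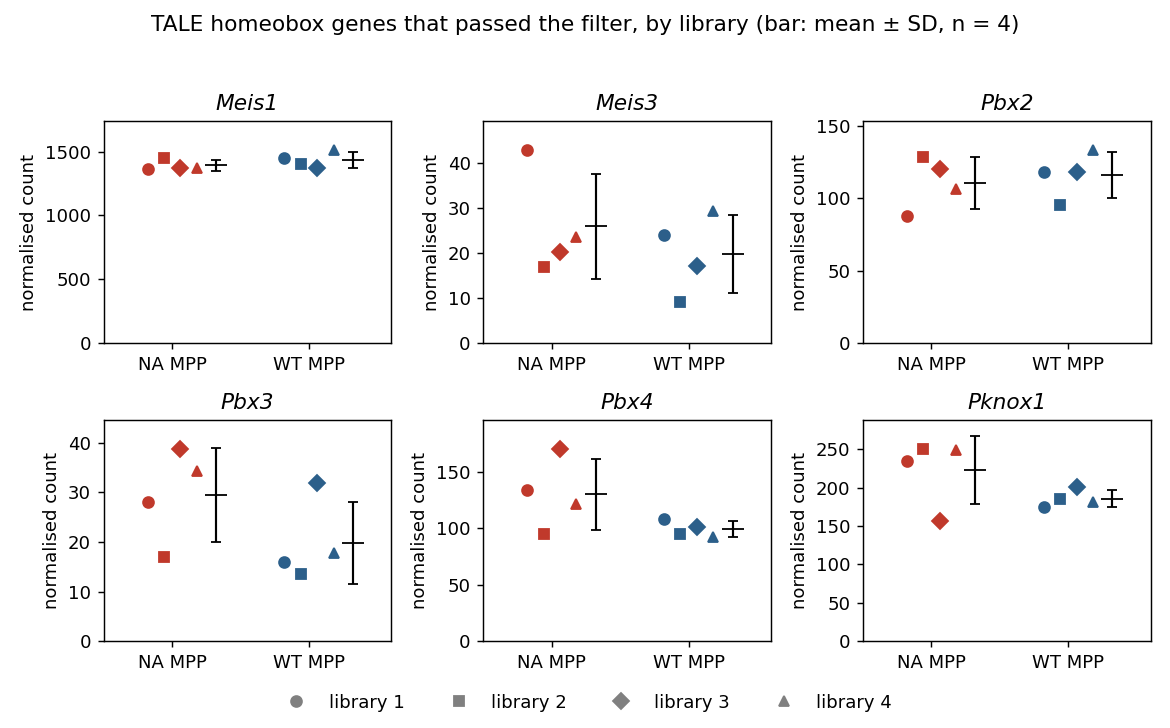
Normalised counts (vertical axes, starting at 0) of the 6 TALE genes that passed the filter, with 1 point per library of NA and WT MPPs and a bar for the mean ± SD (n = 4). The groups overlap in every panel, and Meis1 spreads least, from 1368 to 1511 over all 8 libraries.

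Levels between genes were compared per kilobase of exon. Meis1 led in all 8 libraries, with 129.8 to 143 normalised counts per kb and a mean of 134. Pbx4 followed at 51.8, then Pbx2 at 31.2 and Pknox1 at 29.5, then Meis3 at 7.22 and Pbx3 at 4.03. Meis2 stood at 0.0210 and Pknox2 was listed at 0. The ranges over libraries did not overlap between Meis1 and Pbx4 or between Pbx4 and Pbx2. Pbx2 and Pknox1 were not separated, with Pbx2 the higher in 4 of 8 libraries, and with the longest transcript as length Pknox1 came before Pbx2. Meis3 and Pbx3 overlapped in range, although Meis3 was higher in all 8 libraries, or in 5 of 8 by longest transcript. Meis1 alone made up 49.6% ± 2.42 of the summed level per kb of the 8 genes in NA and 54.6% ± 1.82 in WT (SD, n = 4). By subfamily, the summed level per kb was 140.3 ± 3.52 in NA and 142 ± 8.24 in WT for Meis, 94.1 ± 15.4 and 79.9 ± 5.91 for Pbx, and 32.1 ± 6.43 and 26.8 ± 1.55 for Pknox.

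**Figure D2:**
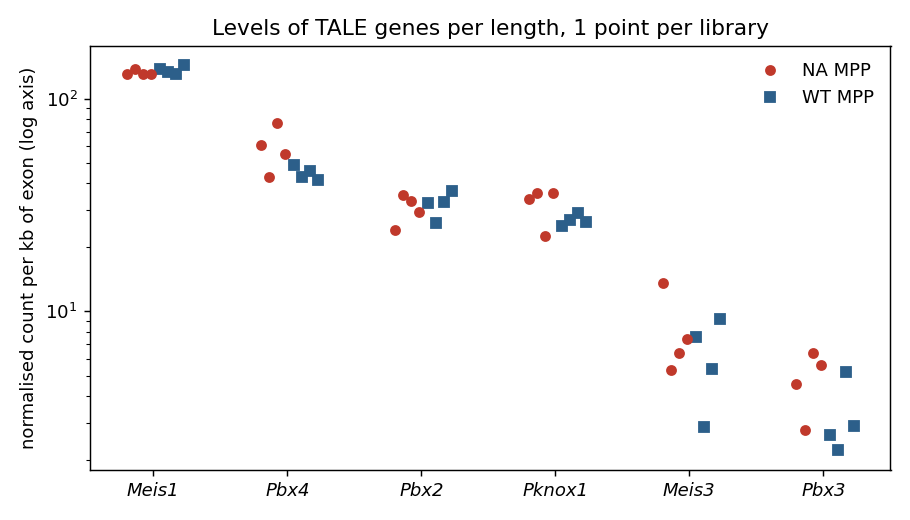
Level of the 6 TALE genes above the filter in normalised counts per kb of exon (vertical log axis), ordered by mean, with 1 point per NA library (circles) and WT library (squares). Meis1 stands above the others in every library, while Pbx2 and Pknox1 share a range, as do Meis3 and Pbx3.

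Meis1 lies on chromosome 11 at chr11:18879817-19018985 (GRCm38, minus strand). Its normalised counts were 1368, 1452, 1372 and 1374 in NA1 to NA4 and 1449, 1401, 1371 and 1511 in WT1 to WT4. NA2 was the highest NA library and WT4 the highest of all, and the groups overlapped. The means were 1391 ± 40.7 in NA and 1433 ± 61.2 in WT. The log2 fold change was -0.04 with a 95% confidence interval from -0.20 to 0.12 (limma adjusted p = 0.730). The interval corresponds to a level in NA between 0.871 and 1.08 times that in WT. After removal of a GC trend the log2 fold change was -0.18, with an interval from -0.33 to -0.031 that excluded 0, and it was not called after adjustment (limma adjusted p = 0.0925). These values rest on 1163 to 1702 estimated reads per library, for which counting error alone gives an SD of 37.2 in NA and 38.0 in WT. Among 890 tested genes within 2-fold of the level of Meis1, 98.7% had a larger within-group coefficient of variation than its 3.68%, and 31.9% of them were called. Meis1 shares 1029 exon bases with the gene model Gm37818 on the same strand, not analysed here, and 896 with the antisense gene Gm16140, whose mean was 1.76.

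The other Meis genes were far lower. Meis3 (chr7:16175090-16186504, plus strand) had 42.9, 16.9, 20.3 and 23.6 normalised counts in NA1 to NA4 and 24.0, 9.06, 17.1 and 29.3 in WT1 to WT4. NA1 was the highest and WT2 the lowest, with the other libraries mixed between groups. With 8 to 46 estimated reads per library, its log2 fold change of 0.40 had an interval from -0.52 to 1.31 (limma adjusted p = 0.555), which reaches a level 2.49 times as high in NA. Meis2 (chr2:115863064-116065839, minus strand) was at 0 in all NA libraries and had 1 read each in WT2 and WT4. Both groups were under the level of 3 reads that a count of 0 allows, which is 2.66 to 3.54 normalised counts depending on the library, so no fold is given. This limit covers counting error only.

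Among the Pbx genes, whose proteins are the direct partners of HOX proteins on DNA, Pbx4 had the highest level per kb. Pbx4 (chr8:69832491-69872292, plus strand) had 134, 94.9, 171 and 122 normalised counts in NA1 to NA4 and 108, 95.1, 101 and 92.3 in WT1 to WT4. NA1, NA3 and NA4 lay above every WT library, and NA2 lay among them. The means were 130.5 ± 31.5 and 99.3 ± 7.10, and the log2 fold change was 0.36, from -0.05 to 0.77 (limma adjusted p = 0.205). This was the lowest p of the 6 genes, at 0.0784 before adjustment in limma. Without NA2 the log2 fold change of Pbx4 was 0.50, from 0.11 to 0.90 (limma adjusted p = 0.0877). After removal of a GC trend it was 0.51, from 0.14 to 0.89 (limma adjusted p = 0.0568). Both of these intervals excluded 0, and Pbx4 was not called in either. Counting error alone gives an SD of 11.4 in NA and 10.02 in WT.

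Pbx2 (chr17:34591266-34597400, plus strand) had 87.7, 129, 120.03 and 106 normalised counts in NA1 to NA4 and 118, 95.1, 118 and 133 in WT1 to WT4. WT4 was the highest and NA1 the lowest, and the groups overlapped. Its log2 fold change was -0.07 from -0.46 to 0.31 (limma adjusted p = 0.816), and its sign turned to 0.032 without NA1, to 0.0095 without NA4 and WT4 and to 0.055 after removal of a GC trend. Pbx2 shares 227 exon bases, 6.24% of its exons, with Gpsm3 on the same strand, whose mean was 179, and reads there could be assigned to either gene. Pbx3 (chr2:34171457-34373142, minus strand) had 28.0, 16.9, 38.8 and 34.3 in NA1 to NA4 and 16.0, 13.6, 31.9 and 17.8 in WT1 to WT4. NA3 was the highest and WT2 the lowest, and WT3 was above 2 of the NA libraries. Its log2 fold change of 0.56, the largest in size of the 6, ran from -0.26 to 1.38 (limma adjusted p = 0.329) on 12 to 42 estimated reads per library.

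The Pknox genes encode proteins that compete with MEIS proteins for PBX partners. Pknox1 (chr17:31564734-31607693, plus strand) had 234, 251, 157 and 249 normalised counts in NA1 to NA4 and 175, 186, 200.4 and 182 in WT1 to WT4. NA1, NA2 and NA4 were above every WT library and NA3 was below every one. The means were 223 ± 44.6 and 186 ± 10.7, and the log2 fold change was 0.24, from -0.10 to 0.58 (limma adjusted p = 0.322). Without NA3 the log2 fold change was 0.40 (limma adjusted p = 0.0443), the only one of 20 alternatives in which any of the 8 genes was called. NA3 was also the library with the highest Pbx3 and Pbx4. Pknox1 shares 155 exon bases with an antisense gene that was not analysed here. Pknox2 (chr9:36890982-37147407, minus strand) was listed at 0 in all 8 libraries.

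**Figure D3:**
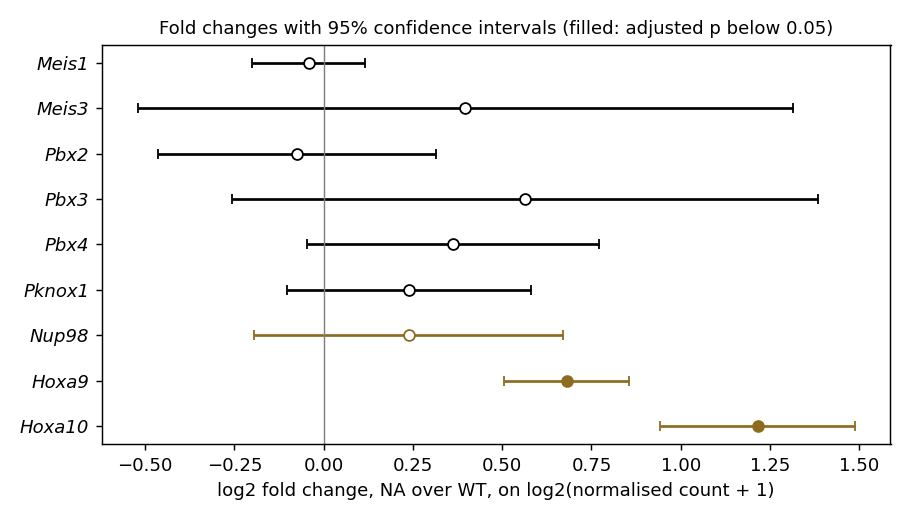
Log2 fold change of NA over WT MPPs (horizontal axis) with its 95% confidence interval for the 6 TALE genes (black) and for Nup98, Hoxa9 and Hoxa10 (brown), where a filled point marks an adjusted p below 0.05 in limma. All 6 TALE intervals include 0, and that of Meis1 is the narrowest, from -0.20 to 0.12.

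Within the 5 deep and within the 3 shallow libraries, the log2 differences between NA and WT were 0.62 and 0.69 for Pbx3, 0.37 and 0.31 for Pbx4, 0.23 and 0.37 for Pknox1 and -0.08 and -0.01 for Meis1. They were -0.10 and 0.87 for Meis3, which differed in sign, and -0.18 and 0.00 for Pbx2. The shallow class held 1 NA and 2 WT libraries, so its values carry no test. Across the 8 libraries, Pbx3 and Pbx4 varied together (Pearson r = 0.75 on the log2 scale), Meis1 went with Pbx2 (r = 0.63) and against Pbx3 (r = -0.70) and Pbx4 (r = -0.62), and the other pairs lay between -0.26 and 0.37. These are descriptions over 8 libraries that share genotype groups and depth classes. Up to 8870 genes averaging 50 normalised counts or more were searched for like patterns, and those most like each gene over the 8 libraries were Fam129a (r = 0.942) and Braf (0.899) for Meis1, Cdk1 (0.960) and Adprh (0.933) for Meis3, and Ppp4r1l-ps (0.974) and Map3k12 (0.959) for Pbx2. They were Fam222b (0.973) and Taf11 (0.969) for Pbx3, Uhrf1bp1 (0.994) and Uimc1 (0.970) for Pbx4, and Clic5 (0.9796) and Otud6b (0.967) for Pknox1. Among so many genes searched over 8 libraries, a high r can arise by chance, so these too are descriptions without a test.

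Hoxa9 and Hoxa10 were higher in NA MPPs. Hoxa9, the gene whose product works with MEIS1 in leukaemia, had 2578, 2481, 2368 and 2913 normalised counts in NA1 to NA4 and 1580.2, 1538, 1589 and 1730.3 in WT1 to WT4. Every NA library was above every WT library, and the log2 fold change was 0.68, from 0.51 to 0.86 (limma adjusted p = 9.38e-05). The log2 ratio of Hoxa9 to Meis1 within a library, in which the scaling between libraries nearly cancels, was 0.91, 0.77, 0.79 and 1.08 in NA1 to NA4 and 0.13, 0.13, 0.21 and 0.20 in WT1 to WT4. The mean was 0.89 ± 0.14 in NA and 0.17 ± 0.04 in WT (SD, n = 4), a difference of 0.72 (exact two-sided permutation test, p = 0.0286, the smallest that 70 assignments of the libraries can give). Since Meis1 ran only from 1368 to 1511 over all libraries, the ratio largely restates the difference in Hoxa9 and is no separate result. As a plain ratio, Hoxa9 stood at 1.71 to 2.12 times Meis1 in NA and at 1.09 to 1.16 times in WT, values per gene that were not divided by length. Nup98, the other gene of the fusion, was 85.0 ± 10.9 in NA and 72.2 ± 12.1 in WT (limma adjusted p = 0.443).

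**Figure D4:**
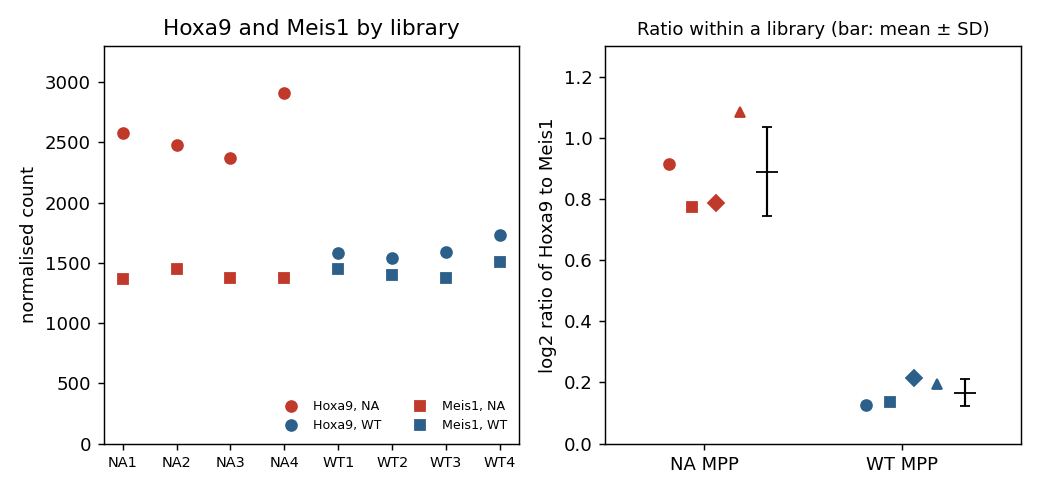
Left, normalised counts of Hoxa9 (circles) and Meis1 (squares) in each library, with NA in red and WT in blue. Right, the log2 ratio of Hoxa9 to Meis1 in each library with a bar for the mean ± SD (n = 4), at 0.77 to 1.08 in NA and 0.13 to 0.21 in WT.

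The wider Hox list had 38 genes in the table, of which 19 were at 0 in every library and 11 were tested. Of these 11, 7 rose in NA and 0 fell, beside 10.1% and 7.87% of all genes, with a median log2 fold change of 0.68 beside -0.01 over all genes. They included Hoxa5 (1.62), Hoxb4 (1.33) and Hoxa10 (1.21), and the count was 3 without NA4 and WT4. The other TALE homeobox genes did not pass the test. Tgif1 (log2 fold change 0.07) and Tgif2 (0.28), whose products are transcriptional repressors, were tested, while Irx1 to Irx6 and Mkx were listed at 0. Of 18 genes reported as targets of HOXA9 or MEIS1, all of them tested, 6 rose and 1 fell (median 0.20). Sox4, a transcription factor of progenitors, rose by 2.12 and Id2, an inhibitor of basic helix-loop-helix factors, by 1.119. Msi2, an RNA-binding protein of stem cells, rose by 0.72 and Lmo2, an adaptor of blood transcription complexes, by 0.58, followed by Myb and Mef2c at 0.49 each. Ccnd3, cyclin D3, fell by 0.42. The count of 7 target genes called was 5 without NA4 and WT4 together, and also 5 with only NA4, only WT1 or only WT4 left out.

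Of 16 partners and regulators of TALE proteins, 15 were tested, of which 6 rose and 2 fell (median 0.06), a share of 53.3% beside 17.9% of all genes tested. This list and those of Hox and target genes were chosen with earlier results of these data known, so their shares are descriptions, not tests. The share called also differed with level, at 15.6% of genes within 2-fold of Pbx2 and 31.9% within 2-fold of Meis1. The co-activator Crebbp rose by 1.55, the histone deacetylase Hdac3 by 1.11, the chromatin adaptor Psip1 by 0.75 and the histone methyltransferase Kmt2a, an upstream activator of HoxA genes and Meis1, by 0.64. Creb1 and Ncor1 rose by 0.31 and 0.30. The deacetylase Hdac1 was among those that fell, by 0.48. Pbxip1, whose product binds PBX proteins, stood at -0.16 (limma adjusted p = 0.384). The count of 8 called was 4 without NA4 and WT4, and 5 without NA2, without NA4, without WT4 or without a variance trend.

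**Figure D5:**
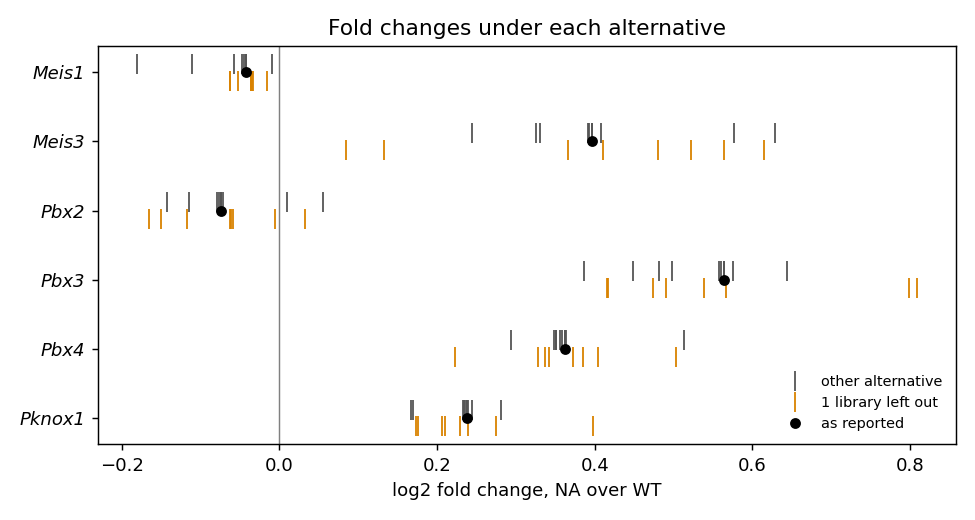
Log2 fold change of NA over WT (horizontal axis) for the 6 TALE genes as reported (black points), with 1 library left out (orange ticks) and under the other alternatives (grey ticks). Meis1 stays between -0.18 and -0.01, Pbx2 lies on both sides of 0, and Meis3, Pbx3, Pbx4 and Pknox1 stay above 0.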

How the data were processed

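Gene expression was measured by RNA sequencing of 8 libraries of 1000 sorted MPPs. Per the labels, cDNA was amplified and made into Nextera XT libraries, reads were separated with bcl2fastq and quantified with RSEM on mm10, and DESeq2 was used; versions and the annotation are not given in the sources used here. The deposited table, named as raw counts, held values that were whole multiples of 1 step per library (0.888 to 1.18; 98.5% to 99.0% of values above 0.5 within a tolerance of 0.1), which shows that the authors had divided counts by size factors. The deposited values, a signal that the authors made by this scaling, were not treated as counts, and the planned count tests were not run.

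Symbols and coordinates came from GENCODE M21 (GRCm38, the same build as mm10), which named 32916 of 37980 rows. The test was that of limma 3.58.1 (R 4.3.3), fitted with a variance trend to log2 values after a pseudocount of 1, for genes with at least 10 in at least 4 libraries, with Benjamini-Hochberg adjustment over 11451 genes and a threshold of 0.05. The ratio of Hoxa9 to Meis1 was compared by an exact permutation test (scipy 1.17.1). The procedure was tested on simulated data. Levels per kb used the union of exons. The genes named were the 8 TALE genes, Hoxa9, Hoxa10 and Nup98, called genes of the lists (some are not reported here), and the 2 genes most like each TALE gene. Other genes named (Pbxip1, Tgif1, Tgif2, Xist, Ddx3y, genes at 0 and overlapping genes) were chosen after their values were seen. The 8 genes and all lists were chosen with earlier results of these data known. Alternatives covered scaling, filter, pseudocount, variance trend, replicate block, depth class, GC content and left-out libraries. Same-numbered libraries deviated together with r of 0.0874, 0.0271, 0.0131 and 0.158, and nothing in the labels ties them, so no block was used.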

Additional observations from a re-analysis of the deposited data

Results flagged for a closer look

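Meis1 in NA2 was 1452 normalised counts, apart from the 1368 to 1374 of the other NA libraries. The gap was 0.929 of the range of the group, above Dixon's 95% critical value for 4 samples. Of 15 groups tested 1 was flagged, where chance would flag 0.75.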

How the results depend on the processing

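The count of TALE genes called stayed at 0 under 19 of 20 alternatives and was 1 (Pknox1) without NA3, a range of 0 to 1 with 1 library left out. Over the same 20, the count of all genes called was 524 without NA4 and WT4 and ran from 1125 (without NA4) to 2176 (without NA3) with 1 library left out, with 1279 without WT4. Scaling to the total count gave 2239 genes, of which 41.3% were higher in NA against 56.1% as reported, and moved the median of all genes to -0.08. The log2 fold change of Pbx2 ran from -0.17 to 0.032 with 1 library left out, and reversed to 0.055 with the GC trend removed, 0.032 without NA1 and 0.0095 without NA4 and WT4; the cause was not tested. With the GC trend removed, Pbx4 had its smallest adjusted p in limma, 0.0568, and Meis1 moved from -0.04 to -0.18 (adjusted p = 0.0925). The difference in the log2 ratio of Hoxa9 to Meis1 was 0.66 to 0.76 with 1 library left out (exact permutation p = 0.0571, the smallest that 7 libraries can give) and 0.67 without NA4 and WT4 (exact permutation p = 0.1, again the smallest). With the replicate number as a block, an alternative chosen after seeing the data for this ratio, it was 0.72 (exact permutation p = 0.125, the smallest for 4 pairs). The replicate block gave 2004 genes and 0 TALE genes called. Lengths by longest transcript moved the level per kb of the 6 genes above the filter. The planned edgeR and DESeq2 tests on recovered reads were not run, since the recovery of whole reads did not pass a check of the values. Depth limits Meis3 and Pbx3, with at most 46 estimated reads per library.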
